A study of Homo sapiens with 9 samples.

Results

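The DEAD-box and DEAH-box helicases are a large family of RNA-remodelling enzymes, and their messages were followed here in HepG2 cells in which TRIB3 had been knocked down. A gene was taken as a member when its symbol was DDX and a number, with or without 1 further letter, or DHX and a number, and a Y-linked gene that meets this rule was left out. The table of gene values held 24204 symbols, of which 53 were members (37 DDX and 16 DHX genes). HepG2 is a human liver cancer cell line, and the TRIB3 protein is a pseudokinase of the stress response to amino acid shortage. The 9 libraries fell into 3 groups of 3: cells given a lentiviral vector (pLKO.1) with a control hairpin (shCtrl), and cells given the vector with either of 2 TRIB3 hairpins (shTRIB3-1 and shTRIB3-2). All groups shared the infection, puromycin selection and, by the labels, high-glucose medium with serum, whereas the study's methods describe RNA from HepG2 cells deprived of glutamine. The medium at harvest is therefore uncertain for every group. The labels name no clone or separate cultures, and hairpins lower a message without deleting its gene.

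These helicases use ATP to separate short RNA duplexes or to strip proteins from RNA, and are named after the amino acids of 1 conserved motif. DEAD-box members mostly open short duplexes locally, whereas DEAH-box members tend to move along a strand. Between them they drive splicing, ribosome assembly, mRNA export, translation, mRNA decay and the sensing of viral RNA, and a few also open RNA-DNA hybrids or G-quadruplexes, which are folded stacks of guanines in DNA or RNA. The study followed DDX5 in connection with TRIB3 and with G-quadruplexes in gene promoters. The present comparison asked what happened to the messages of DDX5 and its relatives when TRIB3 was lowered.

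The hairpin target sequences are shown because they define the knockdown groups, each as the 21 bases of the sense strand on GRCh38.
shTRIB3-1: tggatgacaacttagataccg
shTRIB3-2: gccgtgctcttccgccagatg
The shTRIB3-1 target lay at chr20:388072-388092, in the coding part of exon 2 of the canonical transcript, and was present in 4 of 4 annotated TRIB3 transcripts. The shTRIB3-2 target lay at chr20:391473-391493, in the coding part of exon 3 of that transcript, and was present in 3 of 4. Against the transcripts of all 53 members, the longest run of identical bases was 10 for shTRIB3-1 (in DDX24) and 9 for shTRIB3-2 (in DDX39A). On the opposite strand the longest run was 10 for both, in DDX3X.

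The labels were first checked on TRIB3 itself. Levels are in FPKM, which are fragments scaled by gene length and by the depth of the library. TRIB3 read 67.9, 65.8 and 66.6 FPKM in shCtrl, 34.1, 32.7 and 34.0 in shTRIB3-1, and 20.6, 20.7 and 20.4 in shTRIB3-2. The groups did not overlap, and the log2 fold change was -0.99 with shTRIB3-1 and -1.70 with shTRIB3-2. Depth ran from 34206726 to 36311029 fragments per library. All 10 hepatocyte markers were expressed, and their summed level was 8391 to 9043 FPKM in shCtrl cells, 8610 to 9049 with shTRIB3-1 and 10830 to 11140 with shTRIB3-2. ALB made up most of that sum, and other markers moved apart. TTR had means of 27.9, 59.2 and 91.5 FPKM and APOA1 of 1125, 1738 and 1819 in shCtrl, shTRIB3-1 and shTRIB3-2, whereas FGB had 195.5, 103 and 141, SERPINA1 1012, 746 and 987, and APOB 840.2, 678 and 786. Among blood cell markers, CD68 read 28.9 to 35.04, 35.9 to 38.9 and 32.3 to 34.2 FPKM in these groups, and PTPRC, which marks all white blood cells, was at 0.00448 FPKM or less in every library. None of 4 endothelial markers passed, at sums of 0.259 to 0.289, 0.214 to 0.261 and 0.261 to 0.314 FPKM, and none of 5 fibroblast and stellate cell markers passed, at sums of 0.150 to 0.190, 0.101 to 0.189 and 0.0650 to 0.152 FPKM. The part of the higher hepatocyte sum with shTRIB3-2 in the results below was not tested.

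In control cells the members spanned the range from among the commoner messages to none at all. FPKM is scaled by gene length, so levels can be set against each other. DDX5 stood first at 172 ± 3.25 FPKM (SD, n = 3, as for every level below), followed by DDX21, a nucleolar helicase, at 106 ± 1.22, and DDX17, the nearest relative of DDX5, at 80.9 ± 3.15. DDX1 was next at 79.8 ± 2.22, within the spread of DDX17. DDX3X, DHX9 and DHX15 formed a closely spaced trio at 55.3 ± 0.912, 54.2 ± 1.06 and 53.4 ± 0.961, and neighbours there differed by about their spread. At the other end of the expressed members stood DDX51 at 2.84 ± 0.252, DDX11 at 2.75 ± 0.0915 and DDX31 at 2.24 ± 0.203. The 46 members with at least 1 FPKM in at least 3 libraries were tested, and 7 were not: DDX25, DDX4, DDX43, DDX53, DDX60, DDX60L and DHX58.

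**Figure D1:**
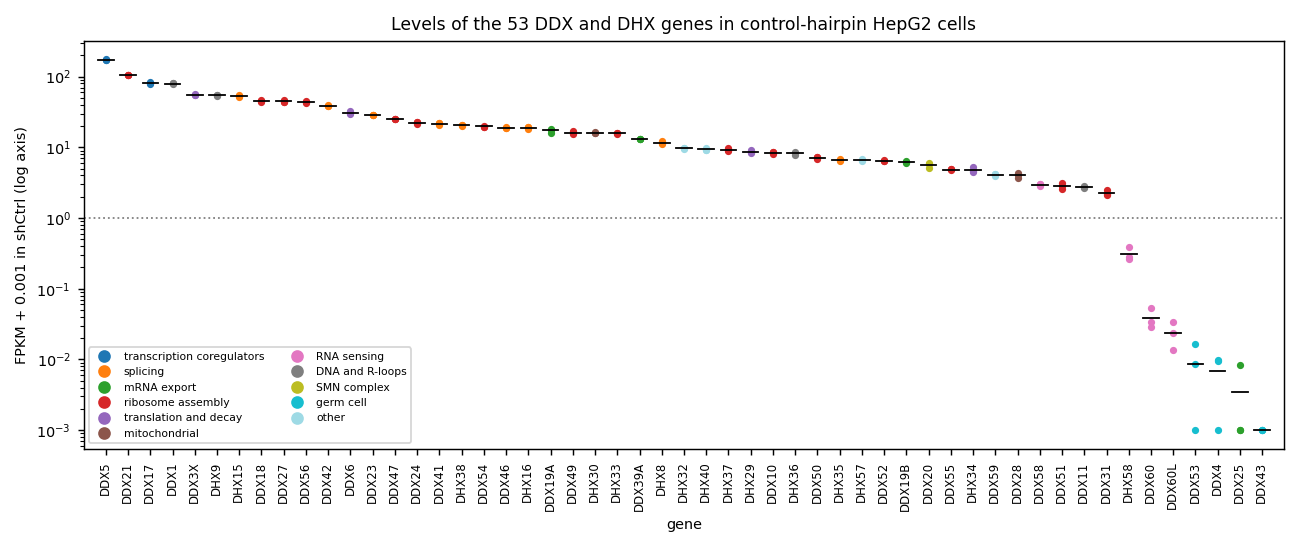
Levels of the 53 members in the 3 shCtrl libraries, as FPKM + 0.001 on a log axis, ordered by mean and coloured by role. Points are libraries, dashes are means and the dotted line marks 1 FPKM. DDX5 stands highest at 172 FPKM, and the 7 members right of DDX31 lie below the line.

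The summed level of the family differed little between groups, and DDX5 took a larger share of it after knockdown. The members together summed to 1191 ± 8.05 FPKM in shCtrl cells, against 1169 ± 24.5 with shTRIB3-1 and 1160 ± 11.8 with shTRIB3-2, and the shTRIB3-2 libraries lay below all controls while those of shTRIB3-1 overlapped them. In RNA from bulk cells, fewer cells of a kind and less RNA per cell cannot be told apart. The DDX5 share of that sum was 14.2% to 14.7% in the shCtrl libraries, 16.3% to 16.8% in shTRIB3-1 and 17.6% to 17.8% in shTRIB3-2, with no overlap between groups. The 5 most abundant members took 41.0% to 41.9%, 41.9% to 43.1% and 44.4% to 45.6% of it in the same order.

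Most members that passed the test changed by small amounts. In the values as deposited, the share called lower with shTRIB3-1 was near that of all genes. The share called lower with shTRIB3-2 was above it. A change was called at an adjusted p under 0.05, from limma on log2(FPKM + 0.1) over all 11265 tested genes. With shTRIB3-1, 10 members rose and 19 fell of 46 tested, against 32.9% of all tested genes called higher and 41.5% called lower. That is 21.7% and 41.3% of the tested members, and the split moved to 14 higher and 13 lower when every library was centred on its median. With shTRIB3-2, 11 rose and 25 fell (23.9% and 54.3%), against 35.4% higher and 40.5% lower among all genes. On median centring the lower calls of DDX17, DDX41, DDX42 and DHX30 with shTRIB3-2 were lost, so part of that excess depends on the scaling. Since most genes passed on the p-value alone, a limit of 1.5-fold was added. No member rose past it with either hairpin, against 12% of all genes higher with shTRIB3-1 and 13.8% with shTRIB3-2. DDX11 and DHX33 fell past it with shTRIB3-1, and DDX11, DHX33 and DDX39A with shTRIB3-2, against 14.4% and 15.1% of all genes. DHX33 lay close to the limit with shTRIB3-1, and the count of 2 became 1 without shCtrl replicate 1, without shCtrl replicate 2 or without shTRIB3-1 replicate 2.

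The median size of change was smaller over the members than over all genes. The median absolute log2 fold change over tested members was 0.16 with shTRIB3-1 and 0.24 with shTRIB3-2, beside 0.32 and 0.34 over all tested genes. Restricted to genes of at least 5 FPKM, it was 0.16 and 0.22 over 40 members and 0.30 and 0.33 over 7714 genes. The signed medians were -0.071 and -0.11 for the members and -0.056 and -0.035 for all tested genes. The members spanned -0.67 to 0.50 with shTRIB3-1, and -0.82 to 0.50 with shTRIB3-2. Both hairpins were compared with the same shCtrl libraries, so their values below are given side by side and not as independent repeats.

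**Figure D2:**
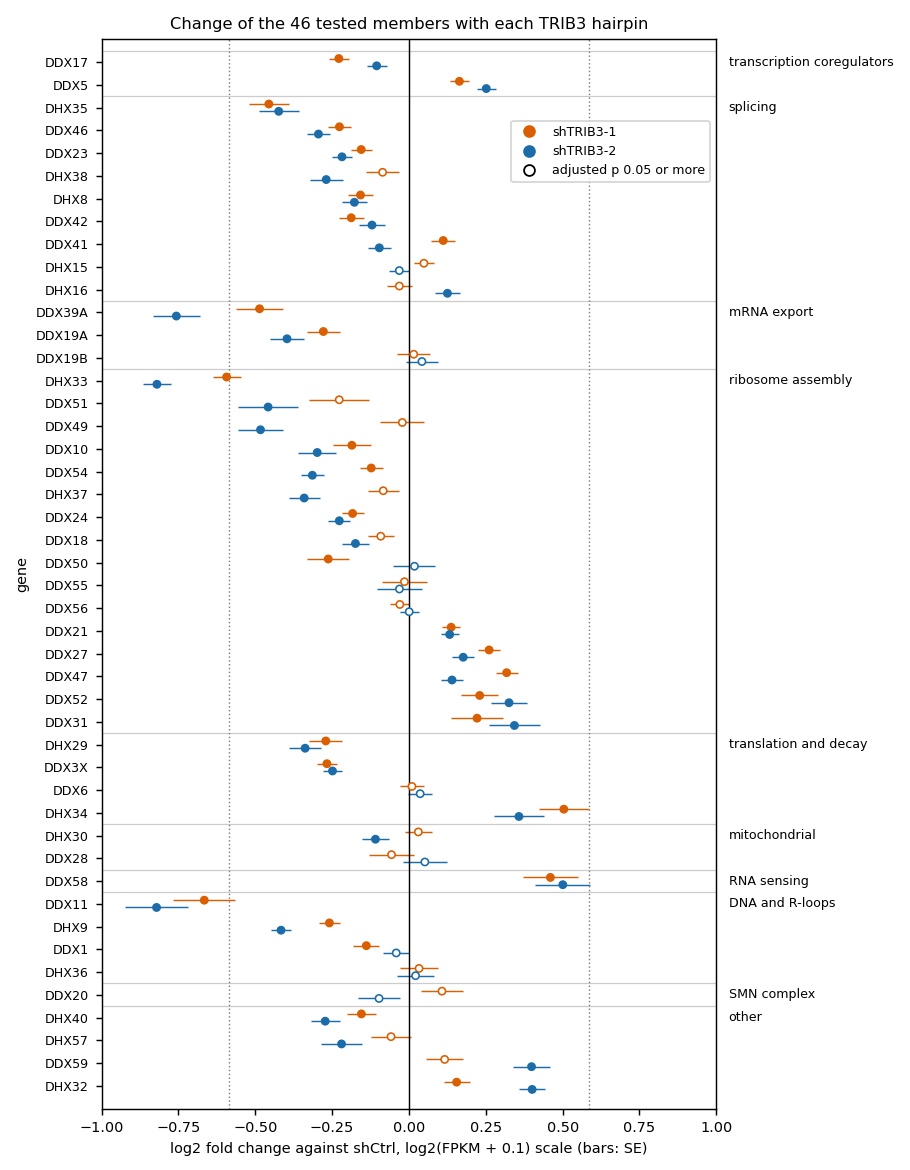
Log2 fold change against shCtrl of the 46 tested members on the log2(FPKM + 0.1) scale, grouped by role, with SE bars. Orange is shTRIB3-1, blue is shTRIB3-2, filled points have an adjusted p under 0.05 and dotted lines mark 1.5-fold. DDX11, DHX33 and DDX39A lie farthest left, and no point passes the right-hand line.

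The DDX5 message rose and that of its relative DDX17 fell. Both proteins are coregulators that act in transcription, alternative splicing and microRNA processing and can form a dimer. DDX5 lies at chr17:64498254-64508199 (minus strand, GRCh38, as for all positions) and DDX17 at chr22:38483438-38507660 (minus strand). DDX5 read 170.5, 170.2 and 176 FPKM in shCtrl, 186, 196 and 197 in shTRIB3-1, and 203, 205 and 207 in shTRIB3-2. Every knockdown library lay above every control library. The log2 fold change was 0.16 ± 0.031 (SE, as below) with shTRIB3-1 and 0.25 ± 0.031 with shTRIB3-2, at adjusted p of 3.96e-04 and 1.01e-05. These values are RNA. For the protein, the study reported by Western blot that neither knockdown nor overexpression of TRIB3 altered DDX5 levels. It also reported unchanged DDX5 staining in xenograft tumours. In the following, a pair of log2 fold changes gives shTRIB3-1 before shTRIB3-2. DDX17 read 77.4, 83.3 and 82.1 FPKM in shCtrl, 68.3, 69.1 and 69.7 in shTRIB3-1, and 74.6, 76.7 and 74.4 in shTRIB3-2. The knockdown libraries lay below the control libraries, and those of shTRIB3-1 were the lowest. The change was -0.23 ± 0.033 (adjusted p = 4.25e-05) and -0.11 ± 0.033 (adjusted p = 0.0110), and the latter call was lost without shCtrl replicate 2 and on median centring (adjusted p up to 0.254). The ratio of DDX5 to DDX17, which does not depend on library scaling, was 2.13 ± 0.0814 in shCtrl, 2.80 ± 0.0641 in shTRIB3-1 and 2.73 ± 0.0499 in shTRIB3-2.

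Among the members that act on DNA, RNA-DNA hybrids or G-quadruplexes, DDX11 and DHX9 fell with both hairpins while DHX36 did not pass. DDX11 is, despite its name, an iron-sulfur DNA helicase that works in sister chromatid cohesion, encoded at chr12:31073860-31104799 (plus strand). It read 2.77, 2.65 and 2.83 FPKM in shCtrl, 1.79, 1.55 and 1.76 in shTRIB3-1, and 1.67, 1.31 and 1.58 in shTRIB3-2. All knockdown libraries were far below the controls, while the hairpins overlapped each other. The log2 fold change was -0.67 ± 0.101 (adjusted p = 7.16e-05) and -0.82 ± 0.101 (adjusted p = 1.07e-05), about as large a fall as that of DHX33. The gene has near-identical copies elsewhere in the genome, and how the counting divided such reads is not known, so its level is uncertain. DHX9, RNA helicase A, which opens RNA-DNA hybrids and G-quadruplexes, read 52.9, 54.9 and 54.6 FPKM in shCtrl, 44.1, 47.2 and 44.5 in shTRIB3-1, and 41.1, 40.5 and 40.1 in shTRIB3-2. The groups were fully separated in that order, at -0.26 ± 0.033 (adjusted p = 1.77e-05) and -0.42 ± 0.033 (adjusted p = 2.14e-07). DDX1, which serves in tRNA ligation and at RNA-DNA hybrids, was the most abundant of this class. Its means were 79.8, 72.6 and 77.5 FPKM, with a change of -0.14 under the first hairpin (adjusted p = 0.0105, lost on median centring) and of -0.041 under the other (adjusted p = 0.39). DHX36, a main unwinder of G-quadruplexes, read 7.80, 8.40 and 8.50 FPKM in shCtrl, 7.79, 8.65 and 8.86 in shTRIB3-1, and 8.51, 7.87 and 8.70 in shTRIB3-2. The groups overlapped throughout, and the estimates of 0.033 ± 0.061 and 0.022 ± 0.061 did not pass.

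**Figure D3:**
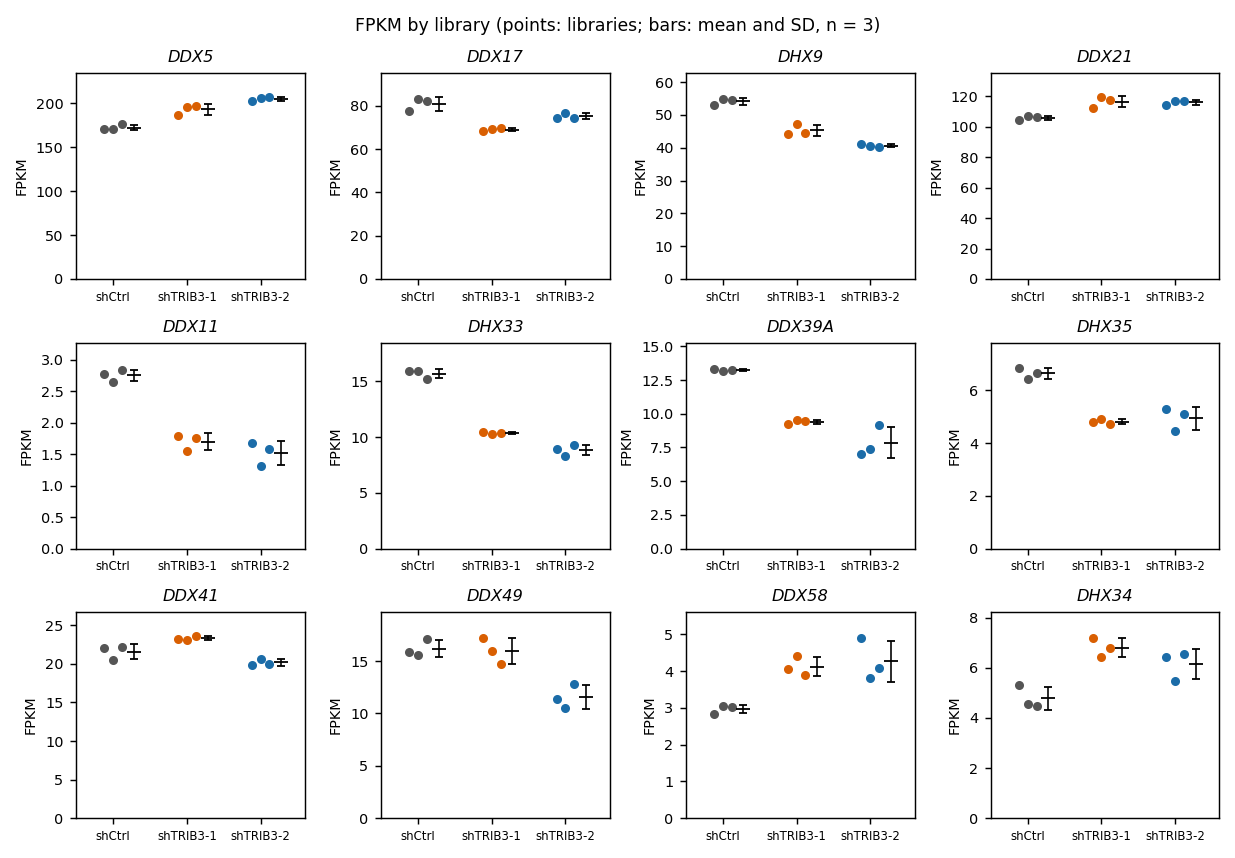
FPKM of 12 members in each library on linear axes that start at 0. Coloured points are libraries, and black bars are the mean and SD of 3. DDX5, DDX21, DDX58 and DHX34 lie above control with both hairpins, DDX17, DHX9, DDX11, DHX33, DDX39A and DHX35 below, DDX49 lies below control with shTRIB3-2 and overlaps it with shTRIB3-1, and DDX41 lies above with shTRIB3-1 and overlaps it with shTRIB3-2.

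Of the mRNA export helicases, DDX39A and DDX19A fell, and DDX19B, the near twin of DDX19A, did not pass. DDX39A is a subunit of the complex that loads export factors onto finished mRNA, encoded at chr19:14408798-14419383 (minus strand). It read 13.3, 13.2 and 13.2 FPKM in shCtrl, 9.27, 9.55 and 9.43 in shTRIB3-1, and 6.997, 7.39 and 9.14 in shTRIB3-2. Every knockdown library was below the controls, and shTRIB3-2 replicate 3 stood nearer to shTRIB3-1 than to its own group. The log2 fold change was -0.49 ± 0.077 (adjusted p = 1.07e-04) and -0.76 ± 0.077 (adjusted p = 1.99e-06). DDX39B, its close relative, meets the naming rule but had no value under that symbol, so it was not analysed here. DDX19A and DDX19B strip export factors from mRNA at the outer face of the nuclear pore. DDX19A read 17.4, 16.2 and 18.3 FPKM in shCtrl, 14.3, 15.0 and 13.5 in shTRIB3-1, and 12.7, 12.9 and 13.7 in shTRIB3-2, a change of -0.28 (adjusted p = 5.10e-04) and -0.40 (adjusted p = 2.57e-05). DDX19B stayed between 6.01 and 6.76 FPKM in all 9 libraries, with the groups overlapping. The ratio of DDX19A to DDX19B was 2.69 to 2.94 in shCtrl, 2.19 to 2.41 in shTRIB3-1 and 1.89 to 2.24 in shTRIB3-2. These genes are near-identical and share annotated exon sequence with other genes of their strand (for DDX19A, 23.9% of the exon sequence), so the division of reads between them is uncertain.

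The ribosome assembly class was the largest, and it split. Of 16 nucleolar helicases, all tested, 5 rose and 5 fell with shTRIB3-1 and 5 rose and 8 fell with shTRIB3-2. These counts lie near the shares of all tested genes (32.9% higher and 41.5% lower, then 35.4% and 40.5%). DHX33, which acts in rRNA synthesis and lies at chr17:5440917-5468982 (minus strand), had the smallest adjusted p of any member. It read 15.9, 15.96 and 15.2 FPKM in shCtrl, 10.5, 10.2 and 10.4 in shTRIB3-1, and 8.93, 8.35 and 9.29 in shTRIB3-2. The groups were separated with no overlap, and 66.1% and 56.4% of the control mean was left. The log2 fold change was -0.59 ± 0.046 (adjusted p = 1.68e-07) and -0.82 ± 0.046 (adjusted p = 7.43e-09). Other members that fell with both hairpins were DDX10 (-0.19 and -0.30), DDX24 (-0.18 and -0.23) and DDX54 (-0.12 and -0.31), the first and last of which lost the shTRIB3-1 call on median centring. That of DDX10 was also lost under quantile normalization and without shCtrl replicate 2 or shTRIB3-1 replicate 3 (adjusted p up to 0.103). DDX51, DDX49, DHX37 and DDX18 fell with shTRIB3-2, at -0.46, -0.48, -0.34 and -0.17, and did not pass with shTRIB3-1. The difference between the hairpins was called for DDX49 and DHX37 and not for DDX51 (adjusted p = 0.0718) or DDX18 (adjusted p = 0.141). DHX37 frees a small nucleolar RNA from the early small ribosomal subunit. It read 8.93, 9.13 and 9.73 FPKM in shCtrl, 8.40, 8.97 and 8.82 in shTRIB3-1, and 7.37, 6.97 and 7.54 in shTRIB3-2, so that only the shTRIB3-2 libraries stood wholly below control.

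The nucleolar helicases that rose were DDX21, DDX27, DDX31, DDX47 and DDX52, each with both hairpins. DDX21, which binds pre-rRNA and small nucleolar RNAs, was the most abundant of the class. It read 105, 107 and 106 FPKM in shCtrl, 113, 119 and 118 in shTRIB3-1, and 114, 117 and 117 in shTRIB3-2. All knockdown libraries exceeded all controls, at 0.14 ± 0.030 (adjusted p = 0.00115) and 0.13 ± 0.030 (adjusted p = 0.00143), and both calls were lost under quantile normalization, with adjusted p up to 0.117 and 0.0503. Its paralog and chromosomal neighbour DDX50 read 6.79, 7.38 and 7.21 FPKM in shCtrl, 5.83, 6.30 and 5.65 in shTRIB3-1, and 7.36, 6.55 and 7.78 in shTRIB3-2. It fell with shTRIB3-1 (-0.26, adjusted p = 0.00402) and did not pass with shTRIB3-2 (0.018, adjusted p = 0.824). The ratio of DDX21 to DDX50 was accordingly 14.9 ± 0.467, 19.7 ± 0.979 and 16.1 ± 1.498 in shCtrl, shTRIB3-1 and shTRIB3-2. DDX27 changed by 0.26 and 0.18, and DDX52 by 0.23 and 0.33. DDX31 changed by 0.22 and 0.34, and its shTRIB3-1 call had an adjusted p of 0.0308. That call was lost without shCtrl replicate 2 or 3 and without shTRIB3-1 replicate 1 or 3. It was also lost on the TPM scale and when all genes were fitted (adjusted p up to 0.118 over all alternatives). DDX47 read 24.9, 24.8 and 25.0 FPKM in shCtrl, 30.8, 32.4 and 30.1 in shTRIB3-1, and 27.0, 27.0 and 28.3 in shTRIB3-2, and the groups were separated with shTRIB3-1 highest (0.32 and 0.14). The annotation gives 36.5% of the exon sequence of DDX47 to a second gene of that strand as well.

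Of 9 helicases of the splicing cycle, 1 rose and 5 fell with shTRIB3-1, and 1 rose and 7 fell with shTRIB3-2, beside 41.5% and 40.5% of all tested genes called lower. DHX35, found in the catalytic spliceosome, changed most. It read 6.84, 6.42 and 6.66 FPKM in shCtrl, 4.79, 4.93 and 4.72 in shTRIB3-1, and 5.28, 4.44 and 5.09 in shTRIB3-2. Both knockdown groups were below control and overlapped each other, at -0.46 ± 0.066 (adjusted p = 4.68e-05) and -0.42 ± 0.066 (adjusted p = 8.23e-05). DDX46, which acts when the branch site is first bound, fell by 0.23 and 0.29 on the log2 scale. DDX23, which lets the spliceosome become active, fell by 0.16 and 0.22, and DHX8, which releases the spliced mRNA, fell by 0.16 and 0.18. DDX42 fell by 0.19 and 0.12. The shTRIB3-1 calls of DDX23 and DHX8 and the shTRIB3-2 call of DDX42 were lost on median centring, the last also without shTRIB3-2 replicate 2 (adjusted p up to 0.127). That of DHX8 was also lost under quantile normalization. DHX38, which remodels the spliceosome between its catalytic steps, fell by 0.27 with shTRIB3-2. DHX16 rose by 0.13 with shTRIB3-2 (adjusted p = 0.0134). The DHX16 call was lost on the TPM scale and without shCtrl replicate 3 or shTRIB3-2 replicate 1 (adjusted p up to 0.0651). DHX15, which takes the spent spliceosome apart, was the most abundant of the class at 53.4 ± 0.961, 55.2 ± 1.71 and 52.2 ± 1.26 FPKM, and it passed in no comparison.

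DDX41 was the one member called in opposite directions with the hairpins. It is a spliceosome-associated helicase known as a gene of inherited predisposition to myeloid leukaemia. It read 22.1, 20.5 and 22.2 FPKM in shCtrl, 23.3, 23.1 and 23.6 in shTRIB3-1, and 19.8, 20.7 and 20.03 in shTRIB3-2. The shTRIB3-1 libraries were above all controls, and the shTRIB3-2 libraries overlapped them. The change was 0.11 ± 0.038 with the first hairpin (adjusted p = 0.0195) and -0.10 ± 0.038 with the other (adjusted p = 0.0372). Neither call held throughout: the first was lost without shCtrl replicate 2 or shTRIB3-1 replicate 3 and on the TPM scale, and the second without shCtrl replicate 1, shCtrl replicate 3, shTRIB3-2 replicate 1 or shTRIB3-2 replicate 3 and under 3 other alternatives. The difference between the hairpins (-0.21 ± 0.038, adjusted p = 9.19e-04) was called under every alternative.

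In translation and mRNA decay, DDX3X and DHX29 fell, DHX34 rose and DDX6 did not pass. DDX3X helps ribosomes to start on structured leaders. It read 54.3, 55.6 and 56.1 FPKM in shCtrl, 44.3, 46.2 and 47.4 in shTRIB3-1, and 46.2, 46.8 and 46.7 in shTRIB3-2. Both knockdown groups lay below control and overlapped each other, at -0.27 ± 0.032 (adjusted p = 8.18e-06) and -0.25 ± 0.032 (adjusted p = 1.40e-05). DHX29, which aids scanning by the small ribosomal subunit, fell by 0.27 and 0.34. DHX34, a factor of nonsense-mediated decay, read 5.30, 4.57 and 4.48 FPKM in shCtrl, 7.20, 6.45 and 6.79 in shTRIB3-1, and 6.42, 5.49 and 6.58 in shTRIB3-2. All knockdown libraries were above control, at 0.50 ± 0.082 (adjusted p = 1.34e-04) and 0.36 ± 0.082 (adjusted p = 0.00174). DDX6, which stores and silences mRNA in processing bodies, stayed between 29.7 and 32.7 FPKM in all libraries.

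DDX58, now named RIGI, at chr9:32455302-32526208 (minus strand), encodes RIG-I, a cytoplasmic sensor of viral RNA, and rose with both hairpins. It read 2.84, 3.06 and 3.02 FPKM in shCtrl, 4.05, 4.43 and 3.90 in shTRIB3-1, and 4.90, 3.802 and 4.09 in shTRIB3-2. The knockdown groups overlapped each other and lay above control, at 0.46 ± 0.090 (adjusted p = 5.37e-04) and 0.50 ± 0.090 (adjusted p = 2.67e-04). The annotation places 43.2% of its exon bases within another gene on the same strand, so its level is uncertain. The other sensors of this class were barely expressed. DHX58 (LGP2) gave 27, 38 and 25 fragments in shCtrl, 17, 21 and 30 in shTRIB3-1, and 26, 11 and 32 in shTRIB3-2, with overlap. DDX60 gave 12, 19 and 10 fragments in shCtrl, 29, 33 and 34 in shTRIB3-1, and 50, 43 and 57 in shTRIB3-2, so that every knockdown library was above control. When all 24204 genes were fitted, DDX60 changed by 0.48 (adjusted p = 0.00651) and 0.82 (adjusted p = 2.82e-04) on the log2(FPKM + 0.1) scale, at mean levels of 0.0375, 0.0919 and 0.142 FPKM. DDX60L, its related neighbour, gave 4 to 10, 9 to 15 and 14 to 24 fragments in the 3 groups. Whether any reads were divided between the pair is not known. In the same fit DDX60L was called higher with shTRIB3-2 (0.43, adjusted p = 0.0104).

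The remaining members were few. Of the mitochondrial helicases, DHX30, which takes part in assembly of the mitochondrial ribosome, had means of 16.1, 16.4 and 14.9 FPKM. Its changes were 0.030 (adjusted p = 0.542) and -0.11 (adjusted p = 0.0389), and the latter call was lost under 8 of 17 alternatives, among them the omission of any 1 control library (adjusted p up to 0.177). DDX28 did not pass, at 4.04 ± 0.338, 3.88 ± 0.235 and 4.19 ± 0.0713 FPKM. DDX20, also called GEMIN3, a subunit of the SMN complex that assembles splicing particles, had means of 5.66, 6.10 and 5.28 FPKM and passed with neither hairpin (0.11 and -0.10). DHX32 read 9.89, 9.71 and 9.52 FPKM in shCtrl, 10.5, 11.05 and 10.9 in shTRIB3-1, and 12.9, 12.4 and 13.2 in shTRIB3-2, a separated rise of 0.16 (adjusted p = 0.00514, lost on the TPM scale) and 0.40 (adjusted p = 2.49e-06). DHX40 fell by 0.15 and 0.27, the former call lost without shCtrl replicate 3, on median centring and under quantile normalization (adjusted p up to 0.157), and DHX57 fell by 0.22 with shTRIB3-2. The germ cell helicases DDX43 and DDX53 and the testis export helicase DDX25 never exceeded 4 fragments in a library. DDX4 (VASA), which marks germ cells, gave 1, 0 and 1 fragments in shCtrl, 4, 6 and 7 in shTRIB3-1, and 0, 0 and 1 in shTRIB3-2. The fit of all genes called it higher with shTRIB3-1 (0.51, adjusted p = 6.89e-04), on these few fragments.

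The hairpins lowered TRIB3 to different levels, and 17 members differed between them. Relative to shTRIB3-1, 6 members were higher and 11 lower with shTRIB3-2 (13% and 23.9% of 46), against 25.1% and 20.7% of all tested genes. The lower count rose to 18 on median centring and with a precision-weighted fit of fragments, and the split was 6 to 16 under quantile normalization and 7 to 8 on the TPM scale. No member differed by 1.5-fold, against 1.97% of all genes higher and 4.34% lower. DDX49, a nucleolar helicase, differed most. It read 15.9, 15.6 and 17.1 FPKM in shCtrl, 17.2, 15.96 and 14.7 in shTRIB3-1, and 11.4, 10.6 and 12.8 in shTRIB3-2. The shTRIB3-1 libraries spanned the controls and the shTRIB3-2 libraries lay below both groups. The difference was -0.46 ± 0.072 (adjusted p = 2.83e-04). At the other end, DDX59 read 4.15, 4.21 and 3.87 FPKM in shCtrl, 4.34, 4.54 and 4.40 in shTRIB3-1, and 5.70, 5.10 and 5.42 in shTRIB3-2, a difference of 0.28 ± 0.061 (adjusted p = 0.00250). DDX50 (0.28) and DHX32 (0.25) also stood higher with shTRIB3-2. For DDX5 the difference of 0.087 ± 0.031 (adjusted p = 0.0356) was lost without shTRIB3-1 replicate 1 or any 1 shTRIB3-2 library (adjusted p up to 0.234 over all alternatives). The DDX5 call was also lost on median centring, with the precision-weighted fit of fragments and when all genes were fitted. The call for DDX39A (-0.27, adjusted p = 0.0132) was lost without shTRIB3-2 replicate 1 or 2 and when all genes were fitted, up to 0.0578.

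**Figure D4:**
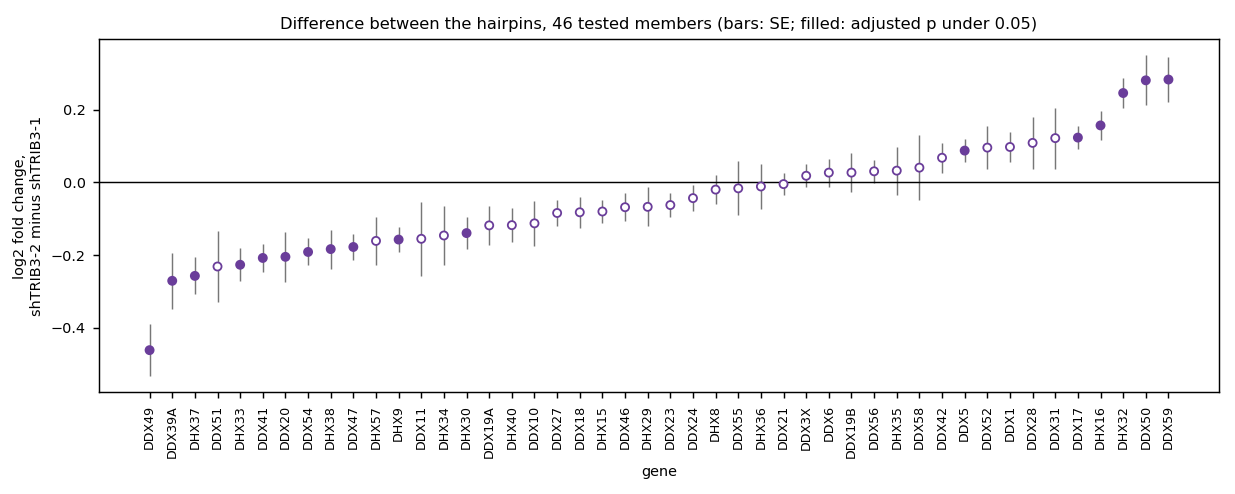
Log2 difference between the hairpins (shTRIB3-2 minus shTRIB3-1) for the 46 tested members, ordered by value, with SE bars. Filled points have an adjusted p under 0.05. DDX49 lies lowest at -0.46 and DDX59 and DDX50 highest at 0.28.

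Because the study concerns G-quadruplexes at promoters, the members' own promoters were searched for the letters of such a structure. RefSeq start sites on GRCh38.p14 gave the 250 bases upstream of 48 of 53 members. The pattern was 4 runs of at least 3 G with 1 to 7 bases between runs, on either strand, and matches of different motifs could overlap. It was present in 11 member promoters (22.9%), beside 22.6% of all 27305 promoters. The holders were DDX10, DDX42, DDX43, DDX46, DDX59, DDX6, DHX30, DHX34, DHX35, DHX37 and DHX9, and DDX5 was not among them. The study's own motif search allowed shorter G runs and longer loops and was not limited to bases upstream of the start. A promoter without a match here may therefore hold a motif by that search. Of the 10 tested holders, to be read beside the same shares of all genes, 1 rose and 5 fell with shTRIB3-1 and 2 rose and 7 fell with shTRIB3-2. Of 32 tested members whose promoter lacked the pattern, 8 rose and 13 fell, and 8 rose and 15 fell. The sequence CCAAT, on either strand, was in 45.8% of member promoters and in 33.0% of all, and the E2F-type letters TTTGGCGC or TTTCCCGC were in 4.17% and 1.96%. A match describes letters and not binding.

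The upstream windows of 3 members that fell with both hairpins are shown 5′ to 3′ on the strand of the gene. They are those of DHX9 (chr1:182839097-182839346, plus strand), with its G-quadruplex pattern in capitals, of DDX39A (chr19:14419384-14419633, minus strand), with 3 CCAAT boxes in capitals, and of DDX11 (chr12:31073610-31073859, plus strand), which held none of the 3 motifs.
DHX9: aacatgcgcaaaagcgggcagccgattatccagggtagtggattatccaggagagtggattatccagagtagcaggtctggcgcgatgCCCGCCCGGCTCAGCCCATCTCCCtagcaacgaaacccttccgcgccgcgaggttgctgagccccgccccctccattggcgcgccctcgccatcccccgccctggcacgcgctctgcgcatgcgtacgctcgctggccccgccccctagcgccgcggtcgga
DDX39A: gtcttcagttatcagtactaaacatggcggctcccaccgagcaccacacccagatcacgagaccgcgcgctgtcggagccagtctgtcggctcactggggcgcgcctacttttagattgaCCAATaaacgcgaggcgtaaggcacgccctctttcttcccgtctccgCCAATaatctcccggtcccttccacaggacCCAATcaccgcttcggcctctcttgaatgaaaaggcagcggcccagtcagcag
DDX11: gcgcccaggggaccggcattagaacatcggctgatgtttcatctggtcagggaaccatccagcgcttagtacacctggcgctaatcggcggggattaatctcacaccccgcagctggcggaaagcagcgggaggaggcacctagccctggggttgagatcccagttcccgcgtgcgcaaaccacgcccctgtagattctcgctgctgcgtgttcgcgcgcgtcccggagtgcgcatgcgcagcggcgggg
The pattern of DHX9 ran from 162 to 139 bases before the start, with its guanines on the minus strand.

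Lists of partner proteins and of other helicases were counted for comparison, to be read beside the shares of all tested genes called lower (41.5% with shTRIB3-1 and 40.5% with shTRIB3-2) and higher (32.9% and 35.4%). Of the 5 tested partners of DDX5 and DDX17 in microRNA processing, 4 fell with each hairpin, and DROSHA, the nuclease of that complex, went from 8.76 ± 0.741 to 6.28 ± 0.426 and 5.61 ± 0.417 FPKM. Of 13 mRNA export factors, 3 rose and 7 fell with shTRIB3-1 and 3 rose and 8 fell with shTRIB3-2, with THOC6 at -0.66 and -0.98. Of 9 SMN complex genes, 2 rose and 3 fell with each hairpin, and GEMIN4, which binds DDX20, changed by -0.44 and -0.92. Of 10 decay factors, 2 rose and 5 fell with shTRIB3-1 and 3 rose and 4 fell with shTRIB3-2, and EDC3, a partner of DDX6, rose by 0.50 and 0.49. Of 14 G-patch proteins, which activate DEAH-box helicases, 2 rose and 4 fell, and 0 rose and 6 fell, with CMTR1 at -0.57 and -0.58.

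Helicases outside the naming rule were counted in the same way. Of 13 tested eIF4A-type DEAD-box proteins and their partners, 2 rose with each hairpin and 11 and 9 fell. EIF4A3 of the exon junction complex, the most changed in the mean of both hairpins, went from 40.4 ± 0.621 to 22.2 ± 0.116 and 22.1 ± 0.393 FPKM. EIF4A1 was on that list but had no value under its symbol. Of 16 other RNA helicases, 3 rose and 11 fell with shTRIB3-1 and 2 rose and 9 fell with shTRIB3-2. IFIH1 (MDA5), the sensor related to RIG-I, changed by -1.45 and -1.29, against the rise of DDX58. Of 17 tested DNA helicases, 15 fell with each hairpin, at medians of -1.51 and -2.48, and MCM5 of the replication helicase changed by -2.12 and -3.91. Of the members that act on DNA, RNA-DNA hybrids or G-quadruplexes, DDX11 changed by -0.67 and -0.82 and DHX9 by -0.26 and -0.42. DDX1 changed by -0.14 and -0.041 and DHX36 by 0.033 and 0.022, of which only the DDX1 value with shTRIB3-1 passed.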

How the data were processed

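RNA-seq was done on 9 HepG2 libraries. FPKM values, computed and deposited by the authors, were used as 1 column per library. By the study's methods reads were aligned with STAR, and the submitters' processing notes name GRCh38, HTSeq and R 3.2.0. Labels and methods name different library kits, so whether counting used the strand is uncertain, and overlapping or antisense genes may share reads. FPKM leaves shifts in RNA composition uncorrected. Whole fragments were recovered from the FPKM steps (24204 of 24204 genes within 0.02 of a whole number), at 34206726 to 36311029 fragments per library. They carry no molecular identifiers, and counting error is a lower limit.

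Genes with at least 1 FPKM in at least 3 libraries (11265) were fitted as log2(FPKM + 0.1), which understates changes of low genes, with 3 group means in limma 3.58.1 (R 4.3.3), empirical Bayes with a mean-variance trend and Benjamini-Hochberg adjustment over all tested genes, two-sided. The deposited values are FPKM, and the count test of the study was not rerun on them or on the recovered fragments. The script was tested on simulated data. Labels name no separate cultures, so p-values measure only the spread between these libraries, and no batch is given. Every pair of replicates differed by more than sampling noise (chi-square per degree of freedom 3.23 to 7.88 over genes with at least 10 fragments). The correlation of log2 values was 0.996 to 0.997 within and 0.921 to 0.984 between groups.

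The members, role classes and lists were chosen with earlier results of these data known. By a fixed rule the text names DDX5, members past 1.5-fold, the most abundant of each class and members called in opposite directions. It also names members under the filter, TRIB3 and, from each partner list, the gene most changed in the mean of both hairpins. DHX9, DDX17, DHX36 and all other named members were chosen after their values were seen. Alternatives were a pseudocount of 1, all genes, at least 5 FPKM, median centring, TPM, quantile normalization, a replicate block, a precision-weighted fit of the fragments (voom) and leaving out each library. Gene positions are from GENCODE release 44 and promoters from RefSeq, both on GRCh38. The summed level of the blood cell marker list is not reported here.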

Additional observations from a re-analysis of the deposited data

Results flagged for a closer look

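The members whose response differed between the hairpins by the test of the difference itself (limma, adjusted p under 0.05) are the only results listed here, and groups of 3 libraries were not searched for stray values. Log2 differences are shTRIB3-2 minus shTRIB3-1. Lower with shTRIB3-2 were DDX49 (-0.46), DDX39A (-0.27), DHX37 (-0.26) and DHX33 (-0.23). So were DDX41 (-0.21), DDX20 (-0.20), DDX54 (-0.19), DHX38 (-0.18), DDX47 (-0.18), DHX9 (-0.16) and DHX30 (-0.14). Higher with shTRIB3-2 were DDX59 (0.28), DDX50 (0.28), DHX32 (0.25), DHX16 (0.16), DDX17 (0.12) and DDX5 (0.087). Several of these calls were lost under alternatives. That of DDX20 was lost without shTRIB3-1 replicate 2 or shTRIB3-2 replicate 1 or 3. That of DHX30 was lost without shTRIB3-1 replicate 2 or 3 or shTRIB3-2 replicate 2, and that of DHX38 without replicate 2 of either knockdown group. Each of these was also lost on the TPM scale, and that of DDX20 also when all genes were fitted. Over all alternatives the adjusted p reached 0.104, 0.124 and 0.0652. DDX47 was above control with both hairpins but less so with shTRIB3-2, and DDX17 below control with both but less so with shTRIB3-2, a difference whose call was lost on median centring (adjusted p up to 0.0829). The shTRIB3-2 libraries also had the lower TRIB3 and the higher summed hepatocyte markers, mostly ALB, and the part of either in these differences was not tested.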

How the results depend on the processing

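Over the tested members and 3 comparisons, 82 calls were made, of which 60 were kept under every alternative run for them (17, or 16 for DDX11, DDX31, DDX51 and DDX58, which drop out at 5 FPKM) and 0 changed direction. The number of members lower by 1.5-fold with shTRIB3-1 (2) became 0 at a pseudocount of 1 and 1 at 5 FPKM, on median centring, under quantile normalization and with voom, and ran from 1 to 2 when 1 library was left out. The number higher by 1.5-fold with shTRIB3-2 (0) became 1 when all genes were fitted, through DDX60. The number lower with shTRIB3-2 than with shTRIB3-1 (11) became 18 on median centring and 18 with voom, and ran from 8 to 13 when 1 library was left out. The cause was not tested. With the replicate number as a block, the counts higher and lower were 10 and 20 for shTRIB3-1, 11 and 25 for shTRIB3-2, and 7 and 12 between the hairpins. The deviations of same-numbered libraries had correlations of -0.0742 to 0.0933 over 9 pairs, beside -0.0756 to 0.0479 over 18 others. The labels give no batch, so whether same-numbered libraries were handled together is not known. Of 2328 values under alternatives, 64 changed sign, and all of these were uncalled. Those of the members named by the rule, members that differed between the hairpins and DHX36 follow, and those of other members are in the count alone. Against shCtrl they were, on median centring, DDX1 with shTRIB3-2 (0.00998), DHX15 with shTRIB3-2 (0.0199), DDX49 with shTRIB3-1 (0.0583) and DHX16 with shTRIB3-1 (0.0486). On the TPM scale they were DDX50 with shTRIB3-2 (-0.00553), DHX15 (-0.00574) and DHX30 (-0.0238) with shTRIB3-1, and DHX36 with each hairpin (-0.0212 and -0.00181). DDX49 with shTRIB3-1 was 0.00772 under quantile normalization and 0.0104 with voom, which gave 0.00105 for DHX16 with shTRIB3-1. Between the hairpins, DDX3X was -0.0103 on median centring and -0.000654 with voom, DDX21 was 0.0261 on the TPM scale and 0.0147 under quantile normalization, and DHX36 was 0.0193 on the TPM scale. With 1 library left out, the differences between the hairpins ran from -0.0289 to 0.0127 for DDX21, -0.00819 to 0.0399 for DDX3X, -0.0615 to 0.118 for DDX58 and -0.0669 to 0.0307 for DHX36. Against shCtrl the ranges were -0.0770 to 0.0353 for DDX49 with shTRIB3-1, -0.0362 to 0.0863 for DDX50 with shTRIB3-2, and -0.00529 to 0.0884 and -0.0167 to 0.0636 for DHX36 with each hairpin.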
